A study of Mus musculus with 13 samples.

Results

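The genes described here mark mesothelium, the flat epithelial lining of the abdominal cavity that also coats visceral fat, together with the keratins of simple epithelia. They are 9 of the 11761 gene rows in the deposited expression table, matched by symbol, and all 9 had a row: the mesothelial markers Upk3b, Msln, Wt1, Lrrn4 and Gpm6a, and the keratins Krt7, Krt8, Krt18 and Krt19. Mice of the Adipoq-NuTRAP line on the C57BL/6J background were kept for 10 weeks on either chow or high-fat food (HFD), and epididymal white fat was taken. NuTRAP is a Cre-dependent reporter that tags ribosomes with GFP and nuclei with mCherry, and Adipoq, the adiponectin gene, restricts the tags to fat cells. RNA bound to tagged ribosomes was pulled down with an antibody against GFP from whole-fat homogenate (translating ribosome affinity purification, TRAP), in 3 libraries per diet. All 6 libraries are thus pulldowns, all animals carried the reporter, and no RNA of whole fat was analysed here. The 7 chromatin samples of the series were not analysed here.

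Mesothelial cells are derived from mesoderm, yet they hold keratin filaments and microvilli as epithelia do. They secrete a lubricating film, and in visceral fat they form the outer sheet of the depot. Keratins assemble as pairs of a type II chain, such as Krt7 or Krt8, with a type I chain, such as Krt18 or Krt19. None of these genes is a classical gene of the mature fat cell.

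Values are CPM, read counts scaled by an effective library size, obtained as the anti-log of the deposited log2 CPM. All rows together sum to 1182123 CPM in chow replicate 3 and to 984422 to 1030469 CPM in the other libraries, so the scaling was not to the plain total. They are not corrected for gene length, so levels are compared between libraries, and a ratio of 2 genes is read only for how it varies between libraries. Differences are HFD minus chow of log2(CPM + 1), a scale on which changes of low genes come out too small. They were tested with limma over the 11643 genes whose mean reached 1 CPM, with Benjamini-Hochberg adjustment over all of them and a threshold of 0.05. All 9 genes passed that minimum. Effective library sizes ranged from 7430000 reads in chow replicate 3, the shallowest, to 39400000 in HFD replicate 3, with 23200000 to 33670000 in the other 4. The labels do not say whether replicates were separate animals, so the spread behind each p-value is that of these libraries and could be technical. In these pulldowns from whole fat, changes in the number of cells of a type, in RNA per cell and in carried-over untagged RNA cannot be told apart. HFD replicate 3 was the highest library for all 9 genes and chow replicate 3 the lowest for 5, and differences are also given without each.

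Of the 9 genes, 4 rose in HFD and 0 fell, where 19.1% of all genes tested rose and 16.0% fell. The 4 were Gpm6a, Msln, Upk3b and Krt7, with mean levels 2.61 to 3.63 times those in chow. Another 5, Wt1, Lrrn4, Krt8, Krt18 and Krt19, did not pass. For 6 of the 9, every HFD library lay above every chow library, against 25.2% of all genes tested. The median log2 difference of the 9 was 1.20, against -0.004 for all genes. Krt18, which is among the 6, and Krt8 had chow means of 0.412 and 0.612 CPM. They reached the minimum of 1 CPM only through HFD replicate 3, so the non-overlap count and the median are a description. HFD replicate 3 was the highest of the 6 libraries for 13.5% of all genes tested. Without it 2 of the 9 rose, Gpm6a and Msln, of 7 that kept a mean of at least 1 CPM, where 14.5% of all genes rose. The count was 1 without chow replicate 3 (Gpm6a), 1 without both libraries (Msln), and 1 each with quantile normalization and with voom weights (Gpm6a both times). It was 2 without chow replicate 2 (Upk3b and Gpm6a) and 7 with the median adipocyte gene set equal.

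**Figure D1:**
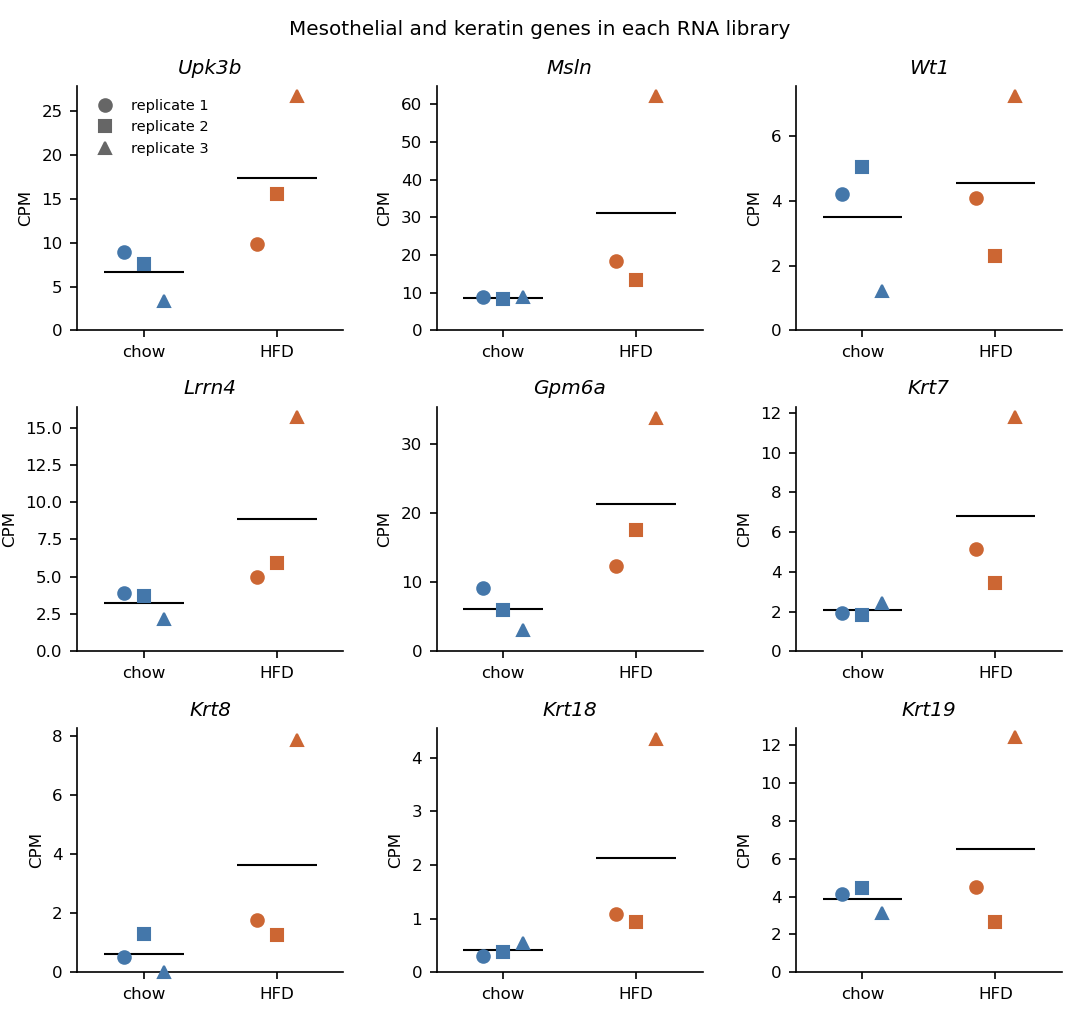
CPM (linear axes from 0) of each gene in the 3 chow and 3 HFD libraries; marker shape gives the replicate and the line the mean of the diet. HFD replicate 3 is the top point in all 9 panels, from 4.35 CPM for Krt18 to 62.2 CPM for Msln.

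Upk3b encodes a membrane protein of the uroplakin family and is among the most used markers of mesothelium. Chow replicates 1 to 3 held 8.94, 7.62 and 3.39 CPM of it, and HFD replicates 1 to 3 held 9.85, 15.5 and 26.7 CPM. The diets did not overlap, but HFD replicate 1 lay close to chow replicate 1, and the spread within HFD was wide (17.3 ± 8.59 CPM against 6.65 ± 2.90 CPM in chow, SD, n = 3). The log2 difference was 1.24 (SE 0.38, limma adjusted p 0.0323). It was 0.89 (adjusted p 0.117) without HFD replicate 3 and 0.88 (adjusted p 0.101) without chow replicate 3. The call was also lost without HFD replicate 2 (1.26, adjusted p 0.0771).

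Msln encodes mesothelin, a lipid-anchored glycoprotein of the mesothelial surface that binds the mucin Muc16. Its chow libraries were nearly equal, at 8.82, 8.28 and 8.75 CPM. In HFD they stood at 18.3, 13.3 and 62.2 CPM, all above chow, with HFD replicate 3 far above the other HFD libraries. The log2 difference was 1.43 (SE 0.45, limma adjusted p 0.0351). Leaving out HFD replicate 3 lowered it to 0.79, and the call held (adjusted p 0.0347). Leaving out chow replicate 3 kept the size, 1.44, and lost the call (adjusted p 0.0883), as did leaving out chow replicate 2 (1.40, adjusted p 0.0686). Without both replicates numbered 3 it was 0.80 and passed (adjusted p 0.0477).

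Gpm6a encodes a membrane glycoprotein of the proteolipid family, best known from neurons and also marking mesothelium. The chow libraries held 9.19, 5.94 and 3.12 CPM and the HFD libraries 12.3, 17.6 and 33.8 CPM. No HFD library reached down to a chow library. Its log2 difference was 1.63 (SE 0.40, limma adjusted p 0.0115). The call held when any single library was left out (adjusted p 0.0041 to 0.0409), and not when both replicates numbered 3 were (0.90, adjusted p 0.061). Its relative Gpm6b rose too, by 1.13 on the log2 scale (adjusted p 0.0246), a call lost when any 1 HFD library was left out.

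Lrrn4 encodes a membrane protein with leucine-rich repeats that is typical of mesothelium. Its chow values were 3.92, 3.73 and 2.16 CPM, and its HFD values 4.96, 5.94 and 15.7 CPM. The diets did not overlap, yet the difference of 1.08 (SE 0.38, limma adjusted p 0.0536) did not pass, and its 95% interval ran from 0.22 to 1.93. It was 0.62 (adjusted p 0.172) without HFD replicate 3 and 0.87 (adjusted p 0.155) without chow replicate 3, and passed without HFD replicate 1 (1.36, adjusted p 0.0369). In the annotation its span overlaps that of Crls1, a cardiolipin synthase gene that fell from 111 ± 18.6 to 53.1 ± 7.67 CPM (adjusted p 0.00118). Reads from shared exons could not be assigned without strand, and whether exons are shared was not checked.

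Wt1 encodes a zinc-finger transcription factor of mesothelium and of the urogenital mesoderm. Unlike the other mesothelial markers it overlapped widely between diets, with chow values of 4.23, 5.06 and 1.22 CPM beside HFD values of 4.11, 2.30 and 7.26 CPM. HFD replicate 2 lay below chow replicates 1 and 2. The log2 difference was 0.33 (SE 0.44, limma adjusted p 0.592), with a 95% interval of -0.66 to 1.31 that leaves room for change either way. It was -0.01 without HFD replicate 3 and -0.12 without chow replicate 3. Relative to Upk3b in the same library, Wt1 stood at 0.473, 0.664 and 0.361 in chow and 0.418, 0.149 and 0.272 in HFD, with 9 reads of Wt1 in chow replicate 3. The same ratio ran from 0.384 to 0.637 over the 6 libraries for Lrrn4, from 0.779 to 1.27 for Gpm6a and from 0.859 to 2.58 for Msln.

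Krt7, a type II keratin of simple epithelia, was the single keratin of the 4 that rose. Chow libraries held 1.95, 1.85 and 2.43 CPM, and HFD libraries 5.13, 3.46 and 11.8 CPM, without overlap. The log2 difference was 1.20 (SE 0.36, limma adjusted p 0.0298). It fell short without HFD replicate 3 (0.77, adjusted p 0.0941) and without chow replicate 3 (1.28, adjusted p 0.0546). The call was also lost without chow replicate 1 or 2 or HFD replicate 1 (adjusted p 0.0528, 0.069 and 0.0553).

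Krt8 and its usual partner Krt18 lie next to each other on chromosome 15, with 23873 bases between them, and were the lowest in reads. Krt8 had 12, 42 and 0 reads in chow and 59, 40 and 311 reads in HFD. That is 0.525 and 1.30 CPM in chow replicates 1 and 2 and 1.77, 1.26 and 7.89 CPM in HFD. The count of 0 in chow replicate 3 allows up to 0.404 CPM (3 reads, counting error only). Chow replicate 2 and HFD replicate 2 were level, and the difference of 1.32 (SE 0.53, limma adjusted p 0.0794) did not pass. Krt18 had 7, 12 and 4 reads in chow, or 0.310, 0.379 and 0.547 CPM, and 1.08, 0.946 and 4.35 CPM in HFD. Its diets did not overlap, and its difference of 0.98 (SE 0.42, adjusted p 0.0953) did not pass either. Where both chains had reads, Krt8 stood at 1.69 and 3.43 times Krt18 in chow replicates 1 and 2 and at 1.64, 1.33 and 1.82 times in HFD. The annotation also holds a Krt8 pseudogene, Krt8-ps, whose reads the counting could have mixed with those of Krt8. Neither gene kept a mean of 1 CPM without HFD replicate 3, so neither has a value there. Without chow replicate 3 the differences were 1.03 (adjusted p 0.216) for Krt8 and 1.05 (adjusted p 0.132) for Krt18. On the deposited log2 values they were 3.84 and 2.04, and neither passed (adjusted p 0.12 and 0.0983). The 3.84 rests in part on the lowest deposited value, -6.85 log2 CPM, held by Krt8 in chow replicate 3.

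Krt19, a type I keratin, overlapped between diets, with chow values of 4.11, 4.44 and 3.12 CPM beside HFD values of 4.50, 2.64 and 12.4 CPM. HFD replicate 2 was the lowest library of all and HFD replicate 3 the highest. The log2 difference was 0.41 (SE 0.42, limma adjusted p 0.478; 95% interval -0.53 to 1.35), with -0.12 without HFD replicate 3 and 0.29 without chow replicate 3.

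**Figure D2:**
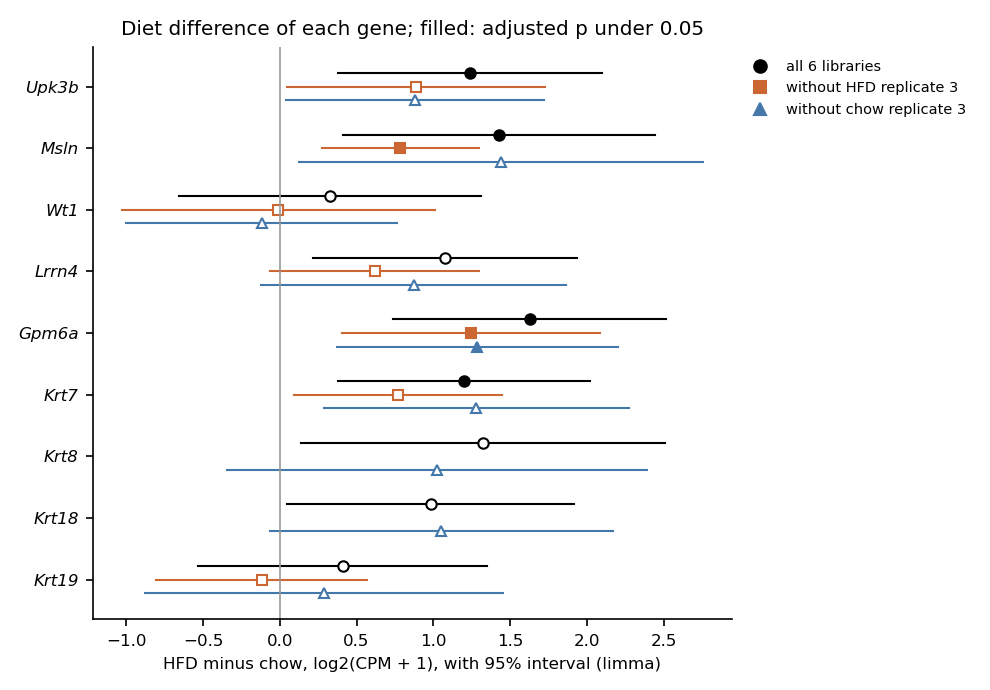
HFD minus chow on the log2(CPM + 1) scale for each gene, with 95% intervals from limma, using all 6 libraries or leaving out HFD replicate 3 or chow replicate 3; filled symbols passed the threshold. Gpm6a is filled in all 3 fits, Msln in 2 of them, and Krt8 and Krt18 have no value without HFD replicate 3.

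The excess in HFD replicate 3 differed in size among the genes. It was 5.22 times the mean of HFD replicates 1 and 2 for Krt8, 4.29 times for Krt18, 3.95 times for Msln and 3.47 times for Krt19. For Lrrn4, Krt7, Wt1, Gpm6a and Upk3b it was 2.88, 2.75, 2.27, 2.26 and 2.11 times. A ratio of at least 2 was held by 1.20% of all genes tested, and the median ratio over all of them was 0.985. The ratio was chosen after the values were seen, and Krt8 and Krt18 reached the minimum of 1 CPM only through HFD replicate 3, so the ratios are a description. HFD replicate 3 was also the deepest library, and the part of depth was not tested.

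**Figure D3:**
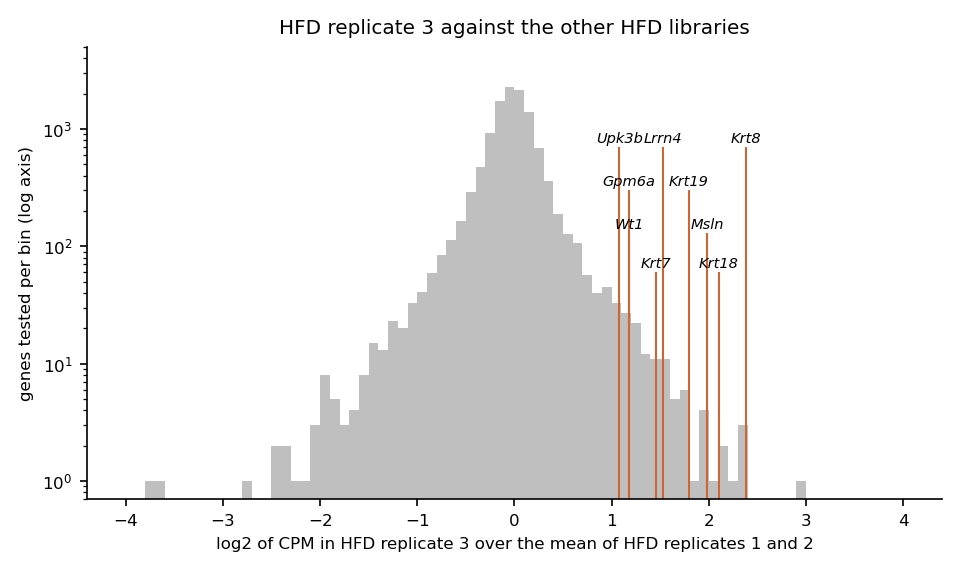
Histogram over the 11643 genes tested of the log2 ratio of CPM in HFD replicate 3 to the mean of HFD replicates 1 and 2, with a log count axis; lines mark the 9 genes. All 9 lie in the right tail, from 2.11 times for Upk3b to 5.22 times for Krt8.

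At the other end, chow replicate 3 was the lowest library for 5 of the 9 genes (Upk3b, Wt1, Lrrn4, Gpm6a and Krt8), against 27.2% of all genes tested. Its counts were small, with 25 reads for Upk3b, 23 for Gpm6a, 16 for Lrrn4 and 9 for Wt1. Exact 95% Poisson intervals, which cover counting error only, reached up to 4.97 CPM for Upk3b, 4.64 for Gpm6a, 3.50 for Lrrn4 and 2.30 for Wt1. The levels in chow replicates 1 and 2 lay above these bounds, which leave out the spread between libraries. Msln (65 reads; 6.75 to 11.2 CPM), Krt18 (0.147 to 1.38 CPM) and Krt19 (1.96 to 4.64 CPM), like Krt7 (1.44 to 3.83 CPM), had intervals that took in the other chow libraries. Krt7 and Krt18 were highest of the chow libraries in replicate 3, and Msln lay between the others.

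Distances between library profiles described which genes lay closest on the log2(CPM + 1) scale. Changes of low genes come out too small there, so the distances depend on level as well as on pattern. The measure was the root mean square difference, over the 6 libraries, of log2(CPM + 1) after each gene's own mean was subtracted, given without a test. Among the 9, the closest pairs were Krt7 with Krt18 (0.16), Upk3b with Gpm6a (0.22), Upk3b with Lrrn4 (0.24) and Msln with Krt7 (0.25). The farthest was Msln with Wt1 (0.79). Krt7 and Krt18 lay closest although their HFD means were 3.27 and 5.16 times those in chow. Krt8 with Krt18 stood at 0.46, with 0 reads of Krt8 in chow replicate 3. Over all genes tested, those nearest to Upk3b were the oxytocin receptor gene Oxtr (0.19), the cadherin gene Cdh11 (0.20) and Ildr2 (0.22). Cdh11 was also nearest to Gpm6a (0.16), followed by the glypican gene Gpc3 (0.18) and Aebp1 (0.21). Msln had Krt7, Pkhd1l1 (0.26) and podoplanin (Pdpn, 0.28) as neighbours, Krt18 had Prr15 (0.10), and Krt19 had the cornified envelope gene Evpl (0.14). For Wt1 the nearest was Gfpt2 (0.19), an enzyme gene of hexosamine synthesis. For Lrrn4 it was Tnfrsf11b (0.16), the osteoprotegerin gene, and for Krt8 Dnajc6 (0.21).

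Promoters of the genes in the 3 closest pairs are shown so that their sequences can be compared. RefSeq windows are on GRCm38.p6, the assembly that mm10 denotes. They run from 250 bases before to 50 after an annotated start, 5′ to 3′ on the gene's strand. For Lrrn4 that start is not the outer 5′ end, since the window lies within the gene's span of 132866686 to 132894010. Of the 9 genes 6 had an entry, with 7 windows because Gpm6a has 2. Capitals mark GGAATG (the core recognised by TEAD factors) and GGGCGG (the GC box), each on either strand. The 5 shown are chr5:136038246-136038545 for Upk3b, chr2:132880813-132881112 (minus strand) for Lrrn4, chr8:54779184-54779483 for Gpm6a, chr15:101412153-101412452 for Krt7 and chr15:102027966-102028265 for Krt18.
Upk3b: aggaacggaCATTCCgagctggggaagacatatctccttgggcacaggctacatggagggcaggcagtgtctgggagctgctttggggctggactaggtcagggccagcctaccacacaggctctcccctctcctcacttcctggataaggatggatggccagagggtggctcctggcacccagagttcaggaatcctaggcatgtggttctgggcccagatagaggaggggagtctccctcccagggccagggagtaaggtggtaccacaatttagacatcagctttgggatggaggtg
Lrrn4: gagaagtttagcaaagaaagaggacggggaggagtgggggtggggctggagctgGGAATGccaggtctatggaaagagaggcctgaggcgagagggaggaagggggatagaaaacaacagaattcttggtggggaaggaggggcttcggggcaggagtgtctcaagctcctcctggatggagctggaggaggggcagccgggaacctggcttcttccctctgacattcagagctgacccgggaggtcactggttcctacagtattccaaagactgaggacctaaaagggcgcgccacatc
Gpm6a: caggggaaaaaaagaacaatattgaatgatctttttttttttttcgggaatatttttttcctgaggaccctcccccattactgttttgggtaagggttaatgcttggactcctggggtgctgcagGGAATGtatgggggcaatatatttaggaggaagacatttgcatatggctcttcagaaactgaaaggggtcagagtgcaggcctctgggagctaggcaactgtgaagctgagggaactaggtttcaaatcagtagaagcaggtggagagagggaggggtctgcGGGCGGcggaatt
Krt7: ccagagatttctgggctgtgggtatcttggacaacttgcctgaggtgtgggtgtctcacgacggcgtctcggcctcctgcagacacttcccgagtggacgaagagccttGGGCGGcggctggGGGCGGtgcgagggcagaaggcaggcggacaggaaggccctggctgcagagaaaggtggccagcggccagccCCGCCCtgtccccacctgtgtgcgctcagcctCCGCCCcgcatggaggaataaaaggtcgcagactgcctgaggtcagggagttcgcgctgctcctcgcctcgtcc
Krt18: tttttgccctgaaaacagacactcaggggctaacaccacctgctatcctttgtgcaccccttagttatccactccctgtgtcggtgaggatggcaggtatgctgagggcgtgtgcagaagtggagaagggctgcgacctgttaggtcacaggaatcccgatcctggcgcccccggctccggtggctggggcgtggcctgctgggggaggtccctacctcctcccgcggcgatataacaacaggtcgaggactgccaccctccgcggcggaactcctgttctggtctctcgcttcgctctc
The windows shown for Upk3b, Lrrn4 and Gpm6a hold 1 GGAATG match each, with none in the other 4 windows. The Lrrn4 match is in a window inside the gene's span, not at its outer 5′ end. Of the 32851 windows in the RefSeq table, 14.7% hold one. The GC box was matched 4 times in Krt7 and 1 time in Gpm6a, against 35.7% of all windows with at least 1. TATAAA (the TATA box) was matched in Krt8 and in the second Gpm6a window (13.6% of all windows), in Krt8 by overlapping matches on both strands, and TGANTCA (the AP-1 motif) in none of the 7 (7.81%). Krt18 held none of the 4 motifs. These are matches of letters in short windows and show no binding.

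Among 20 further genes of mesothelium, listed without the 5 markers above, 18 were tested. Of these, 10 rose and 1 fell, with a median log2 difference of 1.00, where 19.1% of all genes rose and 16.0% fell. Quantile normalization left 5 risen. The rises included those of the claudin gene Cldn15, from 3.79 ± 0.647 to 23.1 ± 1.99 CPM (2.34), and ezrin (Ezr), which links actin to microvilli, from 6.29 ± 1.22 to 25.5 ± 12.8 CPM (1.77). Upk1b, a tetraspanin partner of uroplakins, rose by 1.44 (adjusted p 0.00529), from chow values of 3.41, 3.32 and 2.03 CPM to HFD values of 6.41, 9.19 and 14.2 CPM. Gata6, a transcription factor gene also used in other cells, had a log2 difference of -1.06 and fell (adjusted p 0.00686), a call lost with the median adipocyte gene set equal. Muc16 was near the limit, at 0.277 to 0.901 CPM in chow and 0.334 to 1.36 CPM in HFD, and was not tested. HFD replicate 3 was the highest library for 14 of the 18 (13.5% of all genes), and without it 5 rose (14.5% of all genes), with a median of 0.74. Several genes of this list, such as C3 and Clu, are abundant in other cells of fat too. Its summed level was 799 to 1048 CPM in chow and 1050 to 2021 CPM in HFD, most of it from C3.

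Of 15 further keratins, Krt79, Krt80 and Krt222 had a row, and all 3 rose, where 19.1% of all genes tested rose. Krt222 rose from 1.87 ± 0.264 to 17.1 ± 4.91 CPM (log2 difference 2.63, adjusted p 7.17e-05) and Krt80 from 3.63 ± 1.21 to 11.4 ± 0.685 CPM (1.45). Krt79 rose by 1.46. Their median ratio of HFD replicate 3 to the other HFD libraries was 1.10, against 3.88 for Krt7, Krt8, Krt18 and Krt19. Krt8 and Krt18 reached the minimum of 1 CPM only through HFD replicate 3, so these medians are a description. Of 8 other intermediate filament genes tested, 4 rose and 1 fell, beside 19.1% and 16.0% of all genes. Desmin (Des) rose by 2.18, nestin (Nes) by 1.71 and vimentin (Vim), the filament of mesenchymal cells, by 0.45 (adjusted p 0.0427, lost without chow replicate 1 or 2 or without any 1 HFD library). Syncoilin (Sync) fell by 1.07.

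Desmosomes and plakins anchor keratins at junctions. Of 10 tested rows for desmosomes and linkers, 2 rose, Pkp4 (0.92) and the plectin gene Plec (1.09 in one of its 2 rows), and 0 fell, a share near the 19.1% risen among all genes. Of 22 genes listed for epithelial junctions and surface, 7 had a row and 6 were tested. Of these 6, 4 rose, among them the membrane protease gene St14 (5.65) and its inhibitor Spint2 (1.95). St14 and Cdh3, both among the 4, stood at 0.184 ± 0.207 and 0.491 ± 0.306 CPM in chow. They passed the minimum of 1 CPM only through HFD, so the count is a description. The defining epithelial genes Cdh1 and Epcam, and the 11 genes listed for the epididymis, were not among the rows analysed here. Of 7 tested genes tied to WT1 in urogenital tissue, 1 rose (Synpo, 1.62) and 2 fell (Gata6 and Wtip), beside 19.1% and 16.0% of all genes. The call of Wtip was lost in 8 of 16 alternatives, among them each single library left out except HFD replicate 1.

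Markers of other cell types were measured beside these genes. Adipocyte genes, the labelled cell type, summed to 41506 to 62714 CPM in chow and 35369 to 39909 CPM in HFD. Of 19 tested adipocyte genes 9 fell and 1 rose, among them Adipoq (-0.60, adjusted p 0.0254) and Plin1 (-0.56, adjusted p 0.0179), where 16.0% of all genes fell. Adipoq lost its call in 5 of 16 alternatives and Plin1 in 4, each also without HFD replicate 3. Without HFD replicate 2 or 3, 5 of the 19 fell, and with the median adipocyte gene set equal, 3 fell and 3 rose. The 5 mesothelial markers summed to 18.6 to 35.1 CPM in chow and 49.5 to 145.7 CPM in HFD. The 4 keratins summed to 6.10 to 7.97 CPM in chow and 8.30 to 36.4 CPM in HFD. For the counts that follow, 19.1% of all genes tested rose and 16.0% fell. Macrophage genes (10 of 11 tested rose, 1 fell) summed to 77.7 to 101 CPM in chow and 291 to 457 CPM in HFD. Endothelial genes (10 of 11 rose) summed to 32.6 to 83.2 and 137 to 301 CPM, and smooth muscle genes (6 of 7 rose) to 411 to 524 and 1365 to 1728 CPM. Fibroblast and progenitor genes (5 of 13 rose, 1 fell) summed to 2647 to 3858 and 2279 to 4564 CPM. HFD replicate 3 was the highest library for 0 of 11 macrophage, 0 of 11 endothelial and 0 of 19 adipocyte genes, against 13.5% of all genes tested. Lists of 11 genes are too short to tell 0 from that share. It was the highest library for 3 of 7 smooth muscle and 5 of 13 fibroblast genes. Chow replicate 3 had the highest adipocyte sum of the 6 libraries and HFD replicate 3 the lowest. Chow replicate 3 also had the highest sum over all rows, 1182123 CPM. Whether carried-over RNA of mesothelial cells had a part in the differences between diets was not tested.

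**Figure D4:**
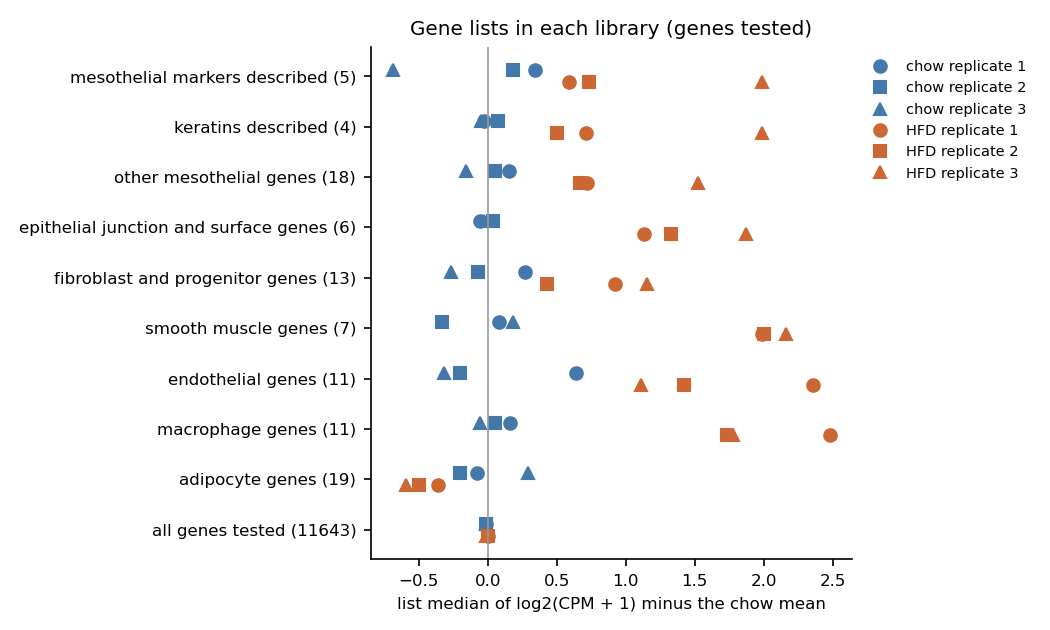
For each gene list (number of genes tested in brackets), the median over genes of log2(CPM + 1) minus the chow mean, in each library. HFD replicate 3 lies farthest right for the 5 mesothelial markers and the 4 keratins (1.99 in both) and for the other mesothelial genes (1.52), as it does for some other lists, while HFD replicate 1 does for macrophage (2.48) and endothelial genes (2.36).

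On GRCm38.p6, Upk3b lies on chromosome 5 at 136038496 to 136044993, Msln on chromosome 17 at 25748613 to 25754378 and Wt1 on chromosome 2 at 105126529 to 105173614. Lrrn4 lies on chromosome 2 at 132866686 to 132894010 and Gpm6a on chromosome 8 at 54779434 to 55060878. The keratin genes Krt7, Krt8 and Krt18 share chromosome 15, at 101412403 to 101427806, 101996711 to 102004342 and 102028216 to 102032026, and Krt19 lies on chromosome 11 at 100140810 to 100145926. Besides Lrrn4, Gpm6a overlaps 1 other annotated gene, which is not among the rows analysed here, and the other 7 overlap none.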

How the data were processed

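The authors deposited log2 CPM per gene (read counts scaled by an effective library size), 1 column per library. Per the submitters' processing notes, the authors used HISAT2, Picard, featureCounts and edgeR with mm10. Their roles and versions, any filter on low genes and the prior count: not given in the sources used here. That the deposited values are log2 was read from the values themselves. Per the labels' protocols, ribosomal RNA was depleted and double-stranded cDNA was tagmented with Nextera XT, a preparation that keeps no strand. Columns were matched to samples by diet and replicate number, with 0 columns unmatched.

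Values were turned back into CPM, and log2(CPM + 1) was compared by limma 3.58.1 (R 4.3.3; moderated with a trend, two-sided, Benjamini-Hochberg) over genes whose mean reached 1 CPM. The fit was tested on simulated data with the same fixed spread for all genes. That setting does not cover genes with a single library far above the others. Steps between low values gave effective library sizes and reads, all whole within 0.1 of a read for values under 20 reads. In chow replicate 3 a single read came to 0.135 CPM, elsewhere to 0.0254 to 0.0431 CPM. The deposited unit is a log value, so limma on the log scale was the main test, and the recovered reads were used only for voom weights.

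The genes described, the lists and the tests were chosen with earlier results of these data known. Beyond the 9 genes, up to 3 risen and 3 fallen genes per list with the largest change, or else the 3 highest, could be named, plus Adipoq, Plin1, Upk1b, Muc16, Cdh1, Epcam and Vim and the 3 genes nearest in profile to each of the 9, leaving out predicted symbols. C3, Clu, Crls1, Cdh3 and the genes named in the closing observations fall outside this rule and were chosen after their values were seen. Positions and promoters are from RefSeq tables of GRCm38.p6, matched by symbol (9 of 9 positions, 6 of 9 promoters; Msln, Wt1 and Krt19 had no promoter entry used here). Alternatives were other pseudocounts, filters and scalings, a replicate block, voom weights on the recovered reads and leaving out each library.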

Additional observations from a re-analysis of the deposited data

How the results depend on the processing

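With each library left out in turn, 1 to 4 of the 9 rose (Lrrn4 among them without HFD replicate 1), and the log2 differences ran from 0.88 to 1.57 for Upk3b, 0.79 to 1.86 for Msln, 0.77 to 1.53 for Krt7, 0.62 to 1.36 for Lrrn4, -0.12 to 0.65 for Wt1 and -0.12 to 0.82 for Krt19, while Gpm6a ran from 1.25 to 1.94, genes changed from 2845 to 3788 and genes fallen from 1162 to 1740. Without both chow replicate 3 and HFD replicate 3, an alternative added after seeing the data, 2660 genes changed, 1090 fell and 1 of the 9 rose (Msln, 0.80, adjusted p 0.0477); Upk3b stood at 0.53, Lrrn4 at 0.415, Wt1 at -0.46, Gpm6a at 0.90, Krt7 at 0.85 and Krt19 at -0.24. Quantile normalization left 1 of the 9 risen (Upk3b 0.98, Msln 1.27, Krt7 0.69, Wt1 -0.20, Krt19 -0.021), and voom weights on recovered reads also 1 (Upk3b 1.16, Msln 1.56, Krt7 1.64, adjusted p 0.0686 to 0.0867). Setting the median adipocyte gene equal moved the median of all genes to 0.446, with 4218 genes risen and 367 fallen; 7 of the 9 then rose, with Lrrn4 (1.46), Krt8 (1.54) and Krt18 (1.23) added, part of which is that shift. Equal totals moved the median of all genes to 0.10 and changed no call of the 9. Pseudocounts of 0.25 CPM or the deposited log2 values changed no call of the 9 either. On the deposited scale Krt8 moved from 1.32 to 3.84 and Krt18 from 0.98 to 2.04, both above Gpm6a (1.81). The 3.84 takes in chow replicate 3, where Krt8 had 0 reads and held the lowest deposited value (-6.85 log2 CPM). A mean of at least 5 CPM left Wt1, Krt7, Krt8 and Krt18 out. The causes were not tested. Deviations of same-numbered libraries correlated at 0.433, 0.232 and 0.086 across genes, and those of differently numbered ones at -0.389 to 0.15. Chow replicate 3 correlated more with HFD replicate 2 (0.15) than with HFD replicate 3. The labels do not say that the numbers pair animals, so the main fit took no pairs. A replicate block gave 4839 changed genes and added Lrrn4 (1.08, adjusted p 0.0454). Of 637 values under alternatives of the other genes that the naming rule covers, named here or not, 595 kept direction and side of the threshold, 42 lost the call and 0 reversed. Depth limits Krt8, Krt18 and Wt1 in chow replicate 3, with 0, 4 and 9 reads.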

Other observations

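Of the 140 genes that stood in HFD replicate 3 at 2 or more times the mean of the other HFD libraries, 69 rose with diet by limma, 7 fell and 64 did not pass. Over all genes tested 19.1% rose and 16.0% fell. A high HFD replicate 3 also raises the HFD mean in that test, so these counts are a description. The genes named in this paragraph were chosen after their values were seen. The acute-phase gene Saa3 was highest, at 39.4 CPM against 5.78 and 4.32 CPM in HFD replicates 1 and 2, with 0.697 to 9.45 CPM in chow, and did not pass (adjusted p 0.138). The endocytic receptor gene Lrp2 stood at 24.9, 21.9 and 75.1 CPM in HFD and at 4.96 to 6.87 CPM in chow, and rose by 2.36 on the log2 scale (adjusted p 0.00185). The matrix gene Cilp stood at 25.8, 14.1 and 77.7 CPM in HFD and at 1.22 to 6.96 CPM in chow, and rose by 2.76 (adjusted p 0.00701). The complement gene C7 went another way, with chow values of 29.2, 27.1 and 13.4 CPM beside HFD values of 6.28, 3.20 and 21.3 CPM. It did not pass (adjusted p 0.0707).

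A further 145 genes stood in HFD replicate 3 at 0.5 times or less of the same mean. They include, chosen after their values were seen, Cd22 and Cxcl9. Cd22, a lectin gene of B cells, stood at 7.67, 1.23 and 1.00 CPM in HFD replicates 1 to 3. Cxcl9, an interferon-induced chemokine gene, was highest in chow replicate 2, at 74.5 CPM, against 10.8 to 16.1 CPM in the other chow libraries and 5.58 to 30.5 CPM in HFD.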
